A study of Mus musculus with 50 samples.

Results

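The genes described here are 5 members of 2 clusters of drug- and steroid-metabolising genes on mouse chromosome 7, the cytochromes P450 Cyp2b9, Cyp2b10 and Cyp2b13 and the sulfotransferases Sult2a1 and Sult2a2, out of 12185 genes in the normalized liver table. They were selected by name from the Cyp2b and Sult2a families, and because 1 liver library, number 24, held outlying values for several of them. That library's values for these genes are therefore a description, with no test. Fits on Cyp2b9 include library 24 unless stated otherwise, and main results are also given without it. All 5 genes were in the table, as were Sult2a7 and Sult2a8, the only other members of either family that it held.

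The data are 50 liver RNA libraries from male offspring of mice that carried A/J-derived chromosomes 4 and 6 on a C57BL/6J background. The labels call them adult F2 mice, whereas the study's methods describe 5-week-old, overnight-fasted offspring of a cross between 2 kinds of B6 hybrid, one heterozygous for chromosome 4 and one for chromosome 6. The labels set no animals apart as treated or control, so all libraries form 1 group. Chromosome 7 was of C57BL/6J origin by design and did not segregate, and genotypes at chromosomes 4 and 6 were not used here. Sample titles gave each library a library number and an animal number, and the animal numbers began again after library 30, which divided the libraries into 28 numbered 1 to 30 and 22 numbered 31 to 59. The 50 libraries carried 48 distinct animal numbers, with 2 numbers on 2 libraries each, and the study counts fewer mice than there are libraries, so some libraries may share a mouse. Counted reads per library ranged from 11965594 to 29976557, with a median of 13620584, and library 24 had 13506993.

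CYP2B enzymes oxidise drugs and steroids in the liver endoplasmic reticulum, and Cyp2b10 is the classical target of the constitutive androstane receptor (CAR, gene Nr1i3), which is activated by phenobarbital. SULT2A enzymes transfer sulfate to hydroxysteroids and bile acids, using a sulfate donor made by the PAPS synthases Papss1 and Papss2. In adult mice Cyp2b9, Cyp2b13, Sult2a1 and Sult2a2 are known as female-predominant liver genes, repressed in males by the male pattern of growth hormone secretion acting through STAT5B.

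The 3 Cyp2b genes lie on the forward strand in the order Cyp2b10 (chr7:25897620-25926624), Cyp2b13 (chr7:26061497-26096197) and Cyp2b9 (chr7:26173411-26210661) in the GENCODE M21 annotation of GRCm38, with 134.9 kb between the first pair and 77.2 kb between the second. Sult2a2 (chr7:13733505-13779636, forward) and Sult2a1 (chr7:13796246-13837409, reverse) are 16.6 kb apart. RefSeq promoter entries, on GRCm38.p6, matched 3 of the 5 genes, and Sult2a1 and Sult2a2 had no entry. The bases before the transcription start are shown to compare the genes that were near silent or variable in these livers. For Cyp2b9 (chr7:26173159-26173408, forward) and Cyp2b13 (chr7:26061245-26061494, forward) the capitals mark the bases that differ between the 2 genes, and for Cyp2b10 (chr7:25897408-25897619, forward) they mark bases that had no identical partner when aligned with Cyp2b9.
Cyp2b9: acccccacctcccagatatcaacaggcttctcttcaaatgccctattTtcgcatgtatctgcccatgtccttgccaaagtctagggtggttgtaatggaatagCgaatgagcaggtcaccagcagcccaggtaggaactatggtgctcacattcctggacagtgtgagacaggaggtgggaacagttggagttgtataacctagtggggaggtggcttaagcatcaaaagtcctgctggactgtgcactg
Cyp2b13: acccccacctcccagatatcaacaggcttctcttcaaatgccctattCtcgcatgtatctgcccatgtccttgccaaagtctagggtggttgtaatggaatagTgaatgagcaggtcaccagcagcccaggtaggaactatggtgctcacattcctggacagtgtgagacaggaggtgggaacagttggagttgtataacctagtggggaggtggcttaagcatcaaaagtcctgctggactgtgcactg
Cyp2b10: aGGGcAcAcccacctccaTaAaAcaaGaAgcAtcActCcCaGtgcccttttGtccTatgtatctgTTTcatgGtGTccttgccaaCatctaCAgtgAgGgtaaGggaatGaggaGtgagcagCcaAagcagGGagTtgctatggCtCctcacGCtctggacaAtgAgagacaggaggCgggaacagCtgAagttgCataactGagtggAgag
The Cyp2b9 and Cyp2b13 stretches shared all but 2 of 250 bases (99.2%). Counting back from the start, with Cyp2b9 first, the differences were T-203C and C-147T. Cyp2b10 matched Cyp2b9 in 193 of 268 aligned columns (72.0%) over its 250 bases before the RefSeq start, of which the last 38 lie inside the gene in GENCODE and are not shown. AGGTCA, the hexamer bound by many nuclear receptors, searched on both strands, was found once in Cyp2b9 and once in Cyp2b13, at position -138 in each, and not in Cyp2b10, while 13.8% of 27025 promoters of this length held it. The STAT5 motif TTCNNNGAA was found in none of the 3 stretches and in 7.18% of all promoters. The A/T-rich ATAAAA was found once in the Cyp2b10 stretch shown, at position -233, and once in its 38 bases not shown, was absent from the other 2 stretches and was present in 17.6% of all promoters. Such matches describe letters and not factor binding.

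The transcribed sequences bear on how reads could be told apart. The coding sequences of Cyp2b9 and Cyp2b13 (1473 bases each) were identical in 93.5% of the 1467 bases that could be set side by side. The following 60 bases of each, at coding positions 902 to 961, are shown because this stretch held the most differences of any of that length, 12, which are in capitals.
Cyp2b9: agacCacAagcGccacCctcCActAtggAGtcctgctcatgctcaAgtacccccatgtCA
Cyp2b13: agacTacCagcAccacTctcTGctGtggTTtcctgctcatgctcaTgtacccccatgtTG
Sult2a1 (855 coding bases) and Sult2a2 (582 in this annotation) were identical in 98.6% of 582 bases side by side, and their longest identical run was 151 bases. Their most different stretch of 60 bases, at coding positions 200 to 259, held only 4 differences.
Sult2a1: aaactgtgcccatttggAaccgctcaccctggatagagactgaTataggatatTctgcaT
Sult2a2: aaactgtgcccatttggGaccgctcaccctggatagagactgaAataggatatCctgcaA
Of all 31-base stretches in its transcripts, Sult2a2 shared 74.5% with some other gene, Sult2a1 55.6%, Cyp2b13 40.8%, Cyp2b9 26.1% and Cyp2b10 19.4%. A figure legend of the study describes expression as unique sequencing reads per gene. The sources used here gave no more on how reads that map to several genes were treated. The values of Sult2a1 and Sult2a2, and to a lesser degree Cyp2b13, could therefore be too low where shared reads were left out. They also remain uncertain as to which copy they came from. Part of their reads could belong to Sult2a3, Sult2a4, Sult2a5 or Sult2a6, which were not in the table.

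Cyp2b10 was the only 1 of the 5 genes with reads in every liver, at least 24 of them. Its normalized value, close to CPM (counts per 1000000 reads), ranged from 1.85 in library 1 to 118 in library 22, with a median of 17.4 and a mean of 24.7 ± 24.1 (SD, n = 50). Its SD was 97.3% of its mean, and of 200 genes with similar means 99.5% varied less, the median of those genes being 12.7%. Counting error made up 0.289% of its variance. Library 24, at 27.2, ranked 16th of 50, and without it the mean was 24.7 ± 24.3 (SD, n = 49). After library 22 came libraries 30 (103), 47 (79.7) and 49 (70.0), while libraries 10 (2.02), 8 (2.92) and 9 (3.35) stood next to the lowest.

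Cyp2b9 was lower than Cyp2b10 per kilobase of exon, with medians of 1.31 against 8.22, and far more variable. Its normalized value ran from 0 in library 40 to 193 in library 24, with a median of 2.46 and a mean of 10.1 ± 28.3 (SD, n = 50). Without library 24 the mean was 6.35 ± 10.4 (SD, n = 49) and the highest value was 56.2, in library 45. The spread of 281% of the mean, or 164% without library 24, was in either case larger than for any of 200 genes of similar mean. Libraries 18 (37.9), 27 (24.9) and 15 (18.6) followed, whereas libraries 47, 11 and 32 held 1 read each. Among the other 49 libraries Cyp2b9 thus ran from no read to 834 reads.

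Cyp2b13, Sult2a1 and Sult2a2 were near silent in all livers but one. Cyp2b13 stood at 16.8 in library 24, had no read in 31 libraries and reached at most 0.540 (8 reads, library 45) in the other 49. Sult2a1 stood at 12.4 (189 reads), with no read in 27 libraries and at most 0.356 (5 reads, library 15) elsewhere. Sult2a2 stood at 21.7 (330 reads), with no read in 22 libraries and at most 0.944 (14 reads, library 45) elsewhere. Library 24 was thus 31.1 times the next highest library for Cyp2b13, 34.8 times for Sult2a1, 22.9 times for Sult2a2 and 3.43 times for Cyp2b9. A level of 3 reads, taken as the floor, corresponded to a normalized value between 0.0951 and 0.259 depending on depth, so most values outside library 24 were below it. Counts of at least 3 reads were seen in 6 other libraries for Cyp2b13, 4 for Sult2a1 and 7 for Sult2a2. In bulk tissue, fewer cells that use a gene and less RNA per cell cannot be told apart.

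**Figure D1:**
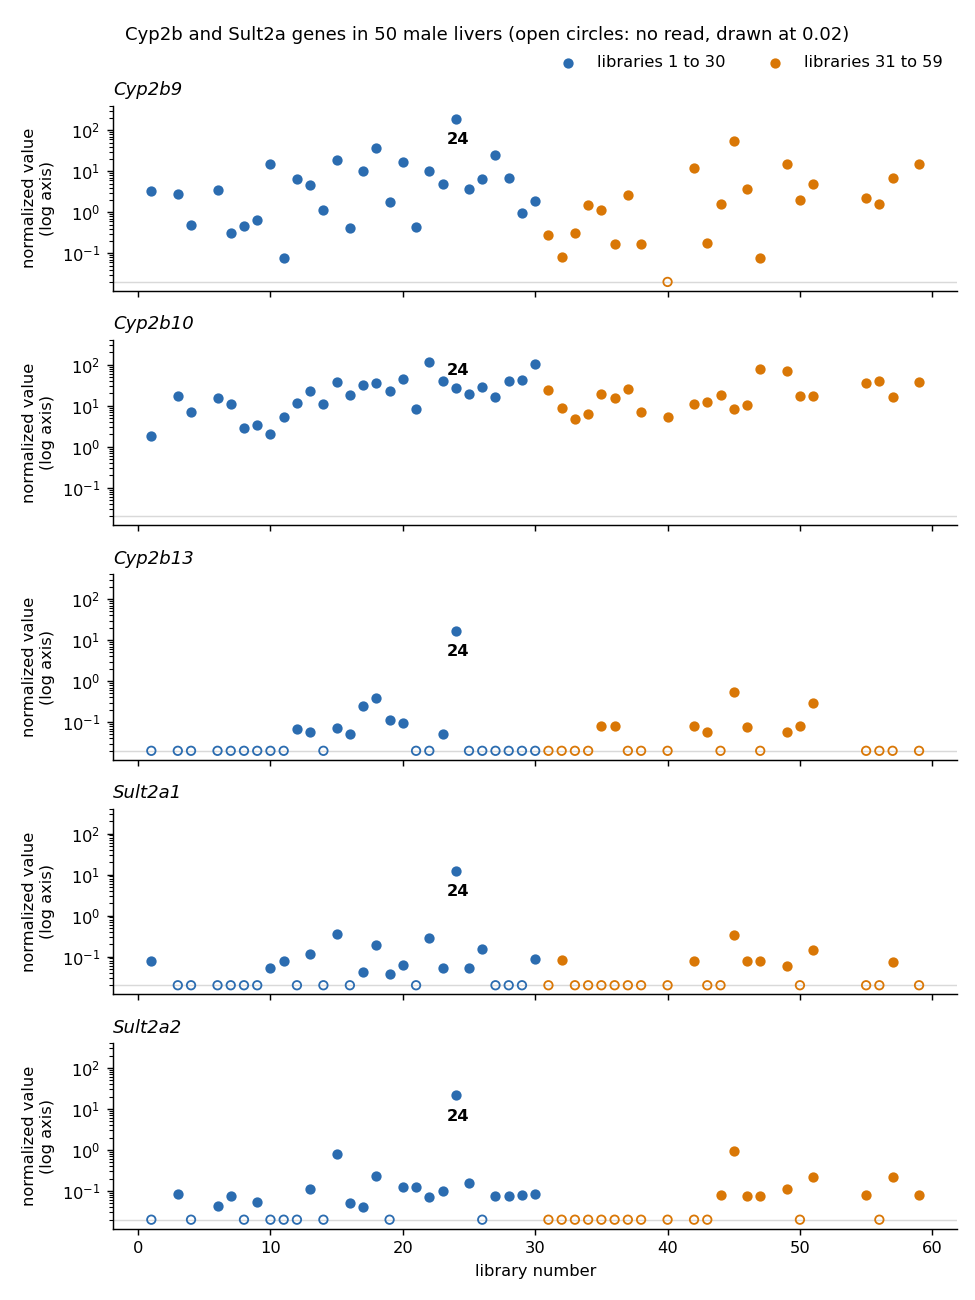
Normalized value of each of the 5 genes (log axis) against library number, 1 point per library, coloured by library set, with open circles at 0.02 for libraries with no read. Library 24 is the highest point for Cyp2b9 (193), Cyp2b13 (16.8), Sult2a1 (12.4) and Sult2a2 (21.7), but lies within the range for Cyp2b10 (27.2).

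The few reads of the 3 near-silent genes were not spread evenly over the other 49 libraries. Together the 3 genes had 151 reads there, against 775 in library 24, which held 83.7% of all their reads. Library 45 had 27 of them, libraries 15 and 18 had 17 each, and libraries 20 and 51 had 9 each. Of these 5 libraries, 4 were also among the 6 highest in Cyp2b9, at ranks 2, 5, 3 and 6, and library 51 ranked 17th. By contrast library 27, at rank 4 in Cyp2b9, had 1 such read. Libraries 59, 10 and 42, at ranks 8, 9 and 10, had 1, 1 and 2. At least 1 read of each of the 3 genes was present in 10 of the 49 libraries, at least 1 of any in 39, and none in 10. Across the 49 libraries the summed reads had a Spearman rho of 0.602 with the Cyp2b9 value, 0.438 with Cyp2b10 and 0.278 with total counted reads, as descriptions of sparse counts that share library and depth. Cyp2b9 and Cyp2b13 share sequence, as shown above, so part of the relation between those 2 genes could be reads of one assigned to the other. Sult2a1 and Sult2a2 shared no 31-base stretch with any Cyp2b gene.

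**Figure D2:**
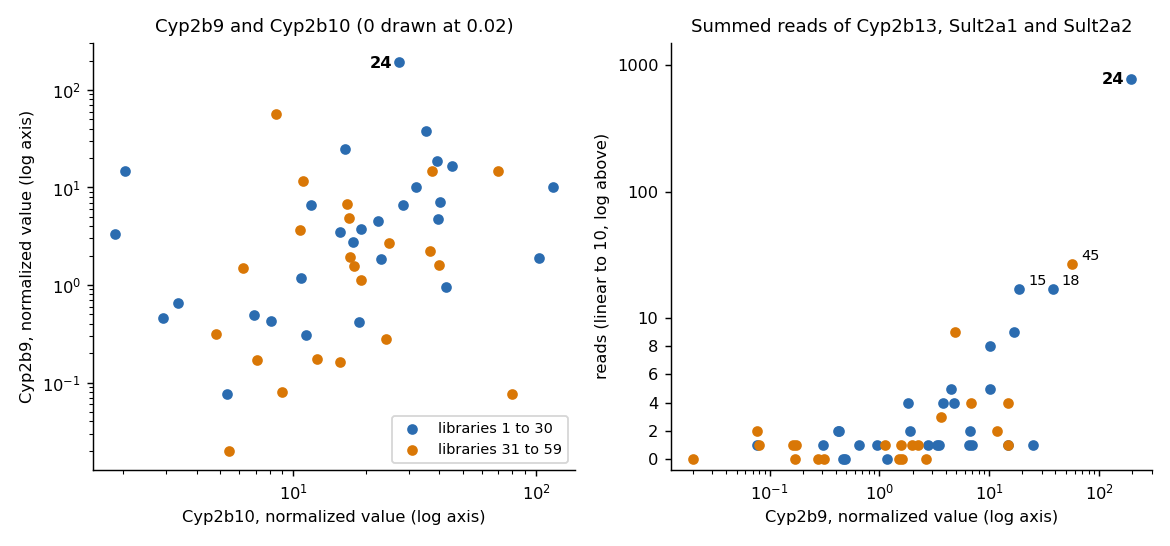
Left, Cyp2b9 against Cyp2b10 (normalized values, log axes) in 50 libraries. Right, summed reads of Cyp2b13, Sult2a1 and Sult2a2 (linear to 10, log above) against Cyp2b9, in which library 24 stands at 775 reads and libraries 45, 15 and 18 at 27, 17 and 17.

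The levels of Cyp2b9 and Cyp2b10 were weakly related across livers. On log2(value + 0.5), Pearson's r was 0.307 (permutation p = 0.0306, 2-sided) and Spearman's rho was 0.372 (permutation p = 0.00775) over 50 libraries. Without libraries 24 and 45, the 2 farthest from the median of Cyp2b9, r was 0.364 (permutation p = 0.00998) and rho was 0.404. Within libraries 1 to 30 r was 0.380 (permutation p = 0.0470, n = 28) and rho 0.481, but within libraries 31 to 59 r was 0.195 (permutation p = 0.385, n = 22) and rho 0.249, so the relation was not detectable in the second set. This was the only pair of the 5 genes for which a correlation was computed, since the others had too few reads. In limma, Cyp2b9 changed by 0.47 ± 0.20 (SE) log2 units per log2 unit of Cyp2b10 (adjusted p = 0.0913), which did not pass the threshold of 0.05, and with library set and animal number as covariates by 0.17 (adjusted p = 0.783).

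The 2 library sets did not differ detectably in any of the 5 genes. Cyp2b9 had a median of 3.65 and a range of 0.0765 to 193 in libraries 1 to 30, and a median of 1.58 and a range of 0 to 56.2 in libraries 31 to 59. Its fitted difference, libraries 31 to 59 minus libraries 1 to 30, was -0.88 ± 0.53 (SE) on the log2(value + 0.5) scale (limma, adjusted p = 0.266). Cyp2b10, with medians of 18.8 and 16.9, differed by -0.03 ± 0.36 (adjusted p = 0.968). In the same fit 13.8% of 11436 genes tested were called. The other 3 genes fell below the minimum mean of 1, so a permutation test of their means was used, and none passed (smallest p = 0.463 over the tests with and without library 24). The share of libraries with at least 1 read of Sult2a2 was 19 of 28 against 9 of 22 (Fisher's exact test, 2-sided, p = 0.0857).

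Both measurable Cyp2b genes were higher in animals with higher numbers. What these numbers stand for was not given in the sources used here. Cyp2b10 had a median of 9.995 (1.85 to 24.9) in the 22 libraries with numbers below 200 and 30.2 (8.13 to 118) in the 28 with higher numbers, and the ranges overlapped. Cyp2b9 had a median of 0.568 (0 to 14.7) in the first and 4.84 (0.0764 to 193) in the second, also with overlap. The boundary of 200 lies in a gap of the numbers. Across all libraries Cyp2b10 rose by 1.46 ± 0.29 (SE) log2 units per 100 animal numbers (limma, adjusted p = 0.000654) and Cyp2b9 by 1.67 ± 0.48 (adjusted p = 0.0143), where 14.2% of 11436 genes were called (7.48% rose and 6.75% fell). Without library 24 the slopes were 1.46 (adjusted p = 0.000919) and 1.48 (adjusted p = 0.0218).

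Within the library sets the slope of Cyp2b10 was 1.93 (adjusted p = 0.00459) in libraries 1 to 30 and 1.02 (adjusted p = 0.197) in libraries 31 to 59, and that of Cyp2b9 was 1.24 (adjusted p = 0.260) and 1.94 (adjusted p = 0.148), so in each set alone only Cyp2b10 in the first passed. Over all genes, 1096 of 11513 were called in the first set and 26 of 11366 in the second. The difference of slopes between the sets did not pass for either gene (adjusted p = 0.679 and 0.880), in a fit that called 0.0437% of genes. The 3 near-silent genes had 15 summed reads in the 22 libraries with numbers below 200, or 0.0459 per 1000000 counted reads, and 136 in the 27 others without library 24, or 0.314 per 1000000, given without a test because the boundary was chosen after the values were seen. Where an animal number was on 2 libraries, Cyp2b9 was 0.464 and 14.7 in the one pair and 10.1 and 2.25 in the other, and Cyp2b10 was 2.92 and 2.02 and then 118 and 36.6. Libraries that shared a number were thus not alike in Cyp2b9.

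**Figure D3:**
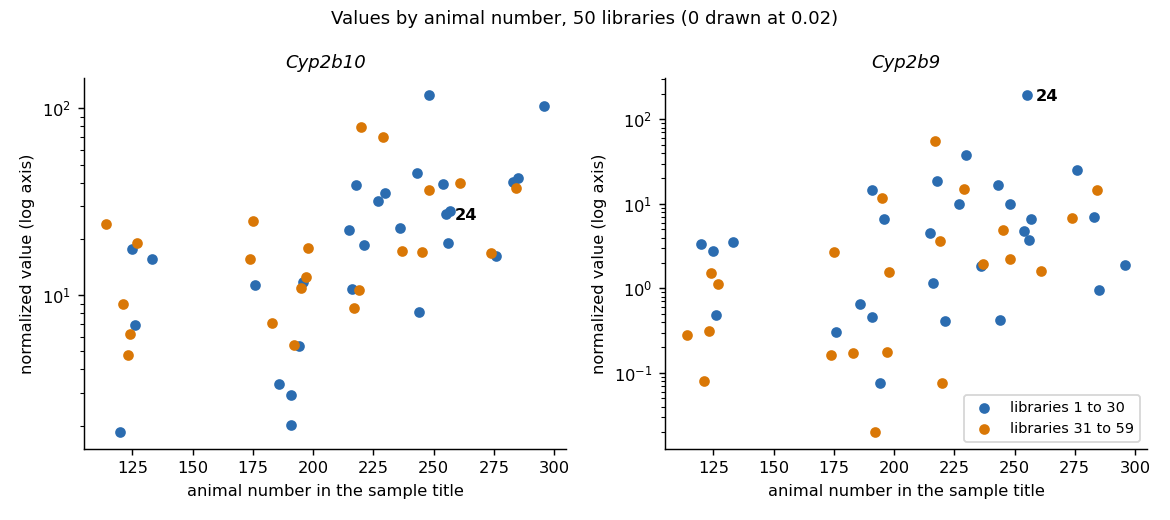
Normalized values of Cyp2b10 and Cyp2b9 (log axes, 0 drawn at 0.02) against the animal number of the sample title, coloured by library set. Cyp2b10 has a median of 9.995 below number 200 and 30.2 above it, and Cyp2b9 of 0.568 and 4.84.

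The rest of the Sult2a family moved in both directions with the Cyp2b genes. Sult2a8, a liver sulfotransferase that was the most abundant of the family, had a value of 411 ± 117 (SD, n = 50), from 165 to 655, and Sult2a7 a value of 1.81 ± 0.675. Per log2 unit of Cyp2b9, Sult2a8 fell by 0.14 ± 0.02 log2 units (adjusted p = 2.06e-05) and Sult2a7 rose by 0.10 ± 0.03 (adjusted p = 0.00687). Without library 24 these slopes were -0.14 (limma, adjusted p = 0.000213) and 0.11 (adjusted p = 0.0165). Per log2 unit of Cyp2b10 the slopes were -0.17 (adjusted p = 0.00301) and 0.14 (adjusted p = 0.0130), and per 100 animal numbers -0.38 (adjusted p = 0.0154) and 0.39 (adjusted p = 0.00839). The 3 fits that included library 24 used the same 50 libraries. With library set and animal number as covariates, Sult2a8 still fell with Cyp2b9 (adjusted p = 0.00209), whereas the slope of Sult2a7 on Cyp2b9 (adjusted p = 0.142) and the slopes of Sult2a8 and Sult2a7 on Cyp2b10 (adjusted p = 0.148 and 0.425) no longer passed. In library 24 Sult2a8 stood at 221.4.

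Genes of the female-type liver programme rose with Cyp2b9, and genes of the male-type programme fell. Over all 11435 genes other than Cyp2b9, 7.98% rose and 8.06% fell with Cyp2b9 (limma slope on log2 Cyp2b9, adjusted p below 0.05). Of 21 female-type genes tested, 15 rose and none fell, with a median slope of 0.15 log2 units per log2 unit of Cyp2b9, and of 24 male-type genes 22 fell and none rose, with a median slope of -0.28, where the median over all genes tested was -0.00064. Without library 24 the counts were 15 rising and 18 falling and the medians 0.14 and -0.25. Of all 11431 genes, 609 rose and 588 fell in that fit. With library set and animal number as covariates the counts were 15 and 19, where 399 of 11435 genes rose and 434 fell. Within libraries 1 to 30 they were 12 of 21 and 19 of 23, where 602 of 11512 genes rose and 640 fell. Libraries 31 to 59 do not include library 24. Within them the counts were 7 of 21 and 12 of 23, where only 40 of 11365 genes rose and 50 fell.

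Among the female-type genes steep slopes were seen for other P450 genes and a transporter gene. Cyp2a4, a steroid 15-alpha-hydroxylase, had values of 0.627 to 77.2 with a median of 4.82 and rose by 0.71 ± 0.05 (SE) log2 units per log2 unit of Cyp2b9 (adjusted p = 6.34e-15). Cyp2a22 rose by 0.50 ± 0.04, the organic anion transporter gene Slc22a26 by 0.43 ± 0.04, and Cyp17a1, a steroid 17-alpha-hydroxylase, by 0.40 ± 0.06. Cyp2a22 and Cyp2a4 are also P450 genes of chromosome 7, and Slc22a26 lies on chromosome 19. These 4 genes passed without library 24 as well.

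Among the male-type genes, Mup7, a major urinary protein, ran from 22.99 to 9630 and fell by 0.85 ± 0.09 log2 units per log2 unit of Cyp2b9 (adjusted p = 1.67e-09). The Mup genes lie on a chromosome that segregated in this cross, and the part of A/J alleles in their spread was not tested. Elovl3, a fatty acid elongase, fell by 0.57 ± 0.05, Cyp7b1, an oxysterol 7-alpha-hydroxylase, by 0.51 ± 0.05, and Selenbp2 by 0.51 ± 0.05. The complement gene C6 fell by 0.34 ± 0.03 (adjusted p = 3.88e-13) and the glutathione transferase gene Gstp1 by 0.24 ± 0.02. Cyp2d9, a steroid 16-alpha-hydroxylase, had values of 349 to 2168 and fell by 0.21 ± 0.03 (adjusted p = 1.75e-07). All of these male-type genes were also called without library 24. The male-type genes that missed the threshold were Bcl6 and Cyp2u1.

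Ranked by Spearman's rho over the 50 libraries among 11435 genes, the 4 genes most like Cyp2b9 were Cyp2a22 (0.876), Cyp2a4 (0.869), Slc22a26 (0.830) and Nt5e (0.817), and the 3 most opposite were C9 (-0.835), C6 (-0.831) and Selenbp2 (-0.823). Over the 49 libraries without library 24 the same 7 genes held the same ranks. These values are descriptions, and 5 of the 7 genes were already in the sex-type lists, with Nt5e and C9 outside them.

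For Cyp2b10 the 5 most like genes were Cdcp1 (rho = 0.810), Pttg1ip (0.787), the mitochondrial fusion gene Mfn2 (0.784) and 2 sulfotransferase genes, Sult1e1, which acts on oestrogens (0.769), and Sult1d1 (0.764). Of these, Mfn2 lies on chromosome 4, which segregated in this cross. The 3 most opposite were Grpel2 (-0.784), Slc17a2 (-0.772) and the mitochondrial threonine tRNA gene mt-Tt (-0.737). In limma, 8.95% of 11435 genes rose and 9.04% fell with Cyp2b10. Sult1d1 rose by 0.25 ± 0.02 log2 units per log2 unit of Cyp2b10 (adjusted p = 1.96e-10), Sult1a1 by 0.16 ± 0.03 (adjusted p = 0.00104) and Papss2, which makes the sulfate donor, by 0.06 ± 0.02 (adjusted p = 0.0162). These were the 3 called of 10 genes tested in the list of sulfate donor and sulfotransferase genes, and all 3 rose. With library set and animal number as covariates Sult1d1 alone of the 10 was called, and it rose, where 173 of 11435 genes were called.

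Genes of the CAR target list went in both directions with Cyp2b10. Of 19 other target genes tested, 3 rose and 3 fell, where 8.95% of all genes rose and 9.04% fell. Their median slope was 0.02 against -0.0010 over all genes. Ugt1a1, which conjugates bilirubin, rose by 0.09 ± 0.02 log2 units per log2 unit of Cyp2b10 (adjusted p = 0.00185), and the transporter genes Slco1a4 and Abcc4 rose by 0.15 ± 0.04 and 0.08 ± 0.02. The bilirubin-conjugate exporter gene Abcc2 fell by 0.14 ± 0.03 (adjusted p = 0.000489), the epoxide hydrolase gene Ephx1 by 0.09 ± 0.03 and Cyp2c29 by 0.09 ± 0.03 (adjusted p = 0.0491, or 0.0584 without library 24). Cyp3a11, Cyp2c37 and Por were among the 13 that were not called. With library set and animal number as covariates Abcc2 alone of the 19 was called, and it fell, where 173 of 11435 genes were called. Within libraries 1 to 30 there were 4 that rose and 1 that fell, where 673 of 11512 genes rose and 785 fell. Within libraries 31 to 59 none of 20 was called, in a fit that called only 10 of 11365 genes. With Cyp2b9, 2 of 19 rose (Slco1a4, Abcc4) and 4 fell (Cyp1a2, Cyp2c29, Aldh1a1, Abcc2). Of these, Abcc4 and Abcc2 were not called with the covariates, where 399 of 11435 genes rose and 434 fell. Abcc4 was also not called without library 24. Over all genes 7.98% rose and 8.06% fell with Cyp2b9.

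The CAR gene itself ran opposite to Cyp2b10 in the fit without covariates. Nr1i3 had a value of 169 ± 47.3 (SD, n = 50) and fell by 0.16 ± 0.04 log2 units per log2 unit of Cyp2b10 (adjusted p = 0.00104), while its slope on Cyp2b9 was not called. The growth hormone receptor gene Ghr fell by 0.14 ± 0.03 with Cyp2b10 (adjusted p = 0.000234) and by 0.08 ± 0.02 with Cyp2b9 (adjusted p = 0.00325). Of the 17 receptor and cofactor genes, Stat5a and Foxa2 rose and Ghr and Nr1i3 fell with Cyp2b10, and Prlr and Stat5a rose and Hnf4a and Ghr fell with Cyp2b9. Over all genes 8.95% rose and 9.04% fell with Cyp2b10, and 7.98% and 8.06% with Cyp2b9. With library set and animal number as covariates none of the 17 was called with Cyp2b10, and Prlr alone, which rose, with Cyp2b9. Of all 11435 genes, 173 were called with Cyp2b10 and 833 with Cyp2b9 in these fits. Per 100 animal numbers Ghr fell by 0.37, Nr1i3 by 0.29 and Hnf4a by 0.23, all called, so these genes moved with animal number as well.

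Sex-type genes also moved with Cyp2b10, and fewer were called with library set and animal number in the fit. Of the 21 female-type genes 6 rose, of the 24 male-type genes 11 fell, and none went the other way. Over all genes 8.95% rose and 9.04% fell with Cyp2b10. With library set and animal number as covariates 1 female-type gene rose and 1 male-type gene fell, and calls over all genes dropped from 2058 to 173. With animal number itself, 6 of 21 female-type genes rose and 12 of 24 male-type genes fell, where 7.48% of all genes rose and 6.75% fell.

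**Figure D4:**
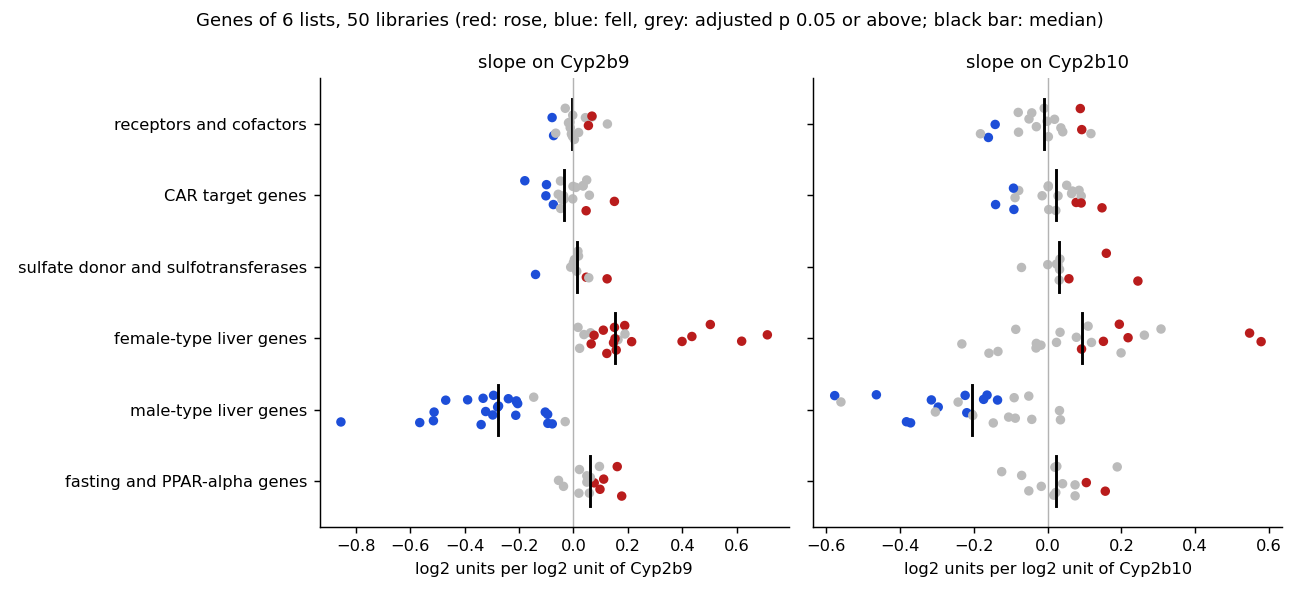
Slopes of the genes of 6 lists on Cyp2b9 (left) and Cyp2b10 (right), in log2 units per log2 unit, 1 point per gene, red where the gene rose, blue where it fell and grey where adjusted p was 0.05 or above, with the median of each list as a black bar. On Cyp2b9, 15 of 21 female-type genes rise and 22 of 24 male-type genes fall, while the CAR targets lie on both sides of 0 in both panels.

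Marker genes of other cells and states moved with these genes in part, and their part in the results was not tested. With Cyp2b9, the 4 globin genes rose (Hbb-bt, Hbb-bs, Hba-a1 and Hba-a2, slopes of 0.14 to 0.16), Alas2 fell, the stellate cell gene Dcn rose by 0.07 and the hepatocyte genes Alb and Cyp2e1 rose by 0.06 and fell by 0.07. The early-life gene H19, the only 1 of its list that was tested, rose by 0.40 with Cyp2b9. It was also called without library 24 (0.34) and with library set and animal number as covariates (0.44). With these covariates no globin gene and no stellate cell gene was called with Cyp2b9, while Alas2, Alb and Cyp2e1 still were. Of all 11435 genes, 399 rose and 434 fell in that fit. None of the 5 Kupffer cell, 5 sinusoidal endothelial or 4 cholangiocyte markers was called with Cyp2b9. With Cyp2b10, 3 of the 5 erythroid genes rose (Hba-a1, Hba-a2 and Hbb-bs, slopes of 0.18 to 0.23), as did the endothelial genes Lyve1 (0.18) and Pecam1 (0.06). Dcn rose by 0.11 and was the only stellate cell gene called, with all 5 slopes of that list above 0. Sox9 of the cholangiocyte list rose by 0.13, while the other 3 genes tested had slopes below 0. The hepatocyte genes Cps1 (0.15) and Alb (0.08) rose, with 3 slopes of that list above 0 and 2 below. The adipocyte gene Plin4, the only 1 of its list tested, fell by 0.22. Per 100 animal numbers the 4 globin genes rose by 0.64 to 0.74, Dcn by 0.34, Lyve1 by 0.32, Cps1 by 0.30 and Alb by 0.26, and Plin4 fell by 0.66 and Alas2 by 0.30. No Kupffer cell marker was called in either fit. Of 14 fasting and PPAR-alpha genes 5 rose with Cyp2b9, among them Cpt1a and Cyp4a14, 3 without library 24 and 2 with the covariates. With Cyp2b10, 2 of the 14 rose, and with animal number 4 did. With library set and animal number as covariates, none of these marker or fasting genes was called with Cyp2b10, where 94 of 11435 genes rose and 79 fell. Over all genes without covariates, 7.98% rose and 8.06% fell with Cyp2b9, and 8.95% and 9.04% with Cyp2b10. The shares with animal number were 7.48% and 6.75%. The summed level of the 5 erythroid genes ranged from 94.7 to 302 over all libraries, with 249 in library 24, that of the 5 endothelial genes from 147 to 225, and that of the 5 hepatocyte genes from 77418 to 124591, with 101803 in library 24.

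Library 24 stood at the edge of the range across the sex-type lists, a contrast that the choice of these genes used and that is given with no test. It was the highest library in 370 of 12185 genes (3.04%) and the lowest in 393 (3.23%) and ranked 7th and 5th of 50 by these counts. Of 26 female-type genes in the table it was highest in 7 (among them Cyp2a4, Cyp2a22, Slc22a26, A1bg, Acot3 and Atp6v0d2) and among the 5 highest in 17. Of 24 male-type genes it was lowest in 15 and among the 5 lowest in 21. Cyp4a12a was 11.7 against at least 32.5 in the other 49, Hsd3b5 0.459 against at least 1.43, and Cyp2d9 349 against at least 568. Not all female-type genes were high, since Cyp2c69 (22.96) and Cyp2c40 (48.7) were below the median of the others (25.6 and 63.8).

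Genes were ranked by the gap to the next library on the log2(value + 0.5) scale. The 10 that stood farthest above the others in library 24 were led by Cyp2b13, Sult2a2, Sult2a1 and Cyp2b9. They included Gm37273, A1bg, Atp6v0d2 and Cd63. This order was set in part by how the genes entered the table and were chosen. Every gene in the table had at least 16 reads in some library. Outside library 24, Cyp2b13, Sult2a1 and Sult2a2 had at most 8, 5 and 14, so these 3 met that level only through library 24. The 5 farthest below were Cyp4a12b, Cyp4a12a, Omd, C9 and Hsd3b5. The early-life gene H19 was also highest there, at 14.6 against at most 9.44, as was Afp at 1.77 against at most 1.52. All 4 Y-linked genes listed (Ddx3y, Eif2s3y, Kdm5d and Uty) were within the range of the other libraries, with 115 to 532 reads. Papss2 and Abcc4 were highest in library 24, and Sult5a1 and Fmo5 lowest. Its total counted reads ranked 29th of 50.

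**Figure D5:**
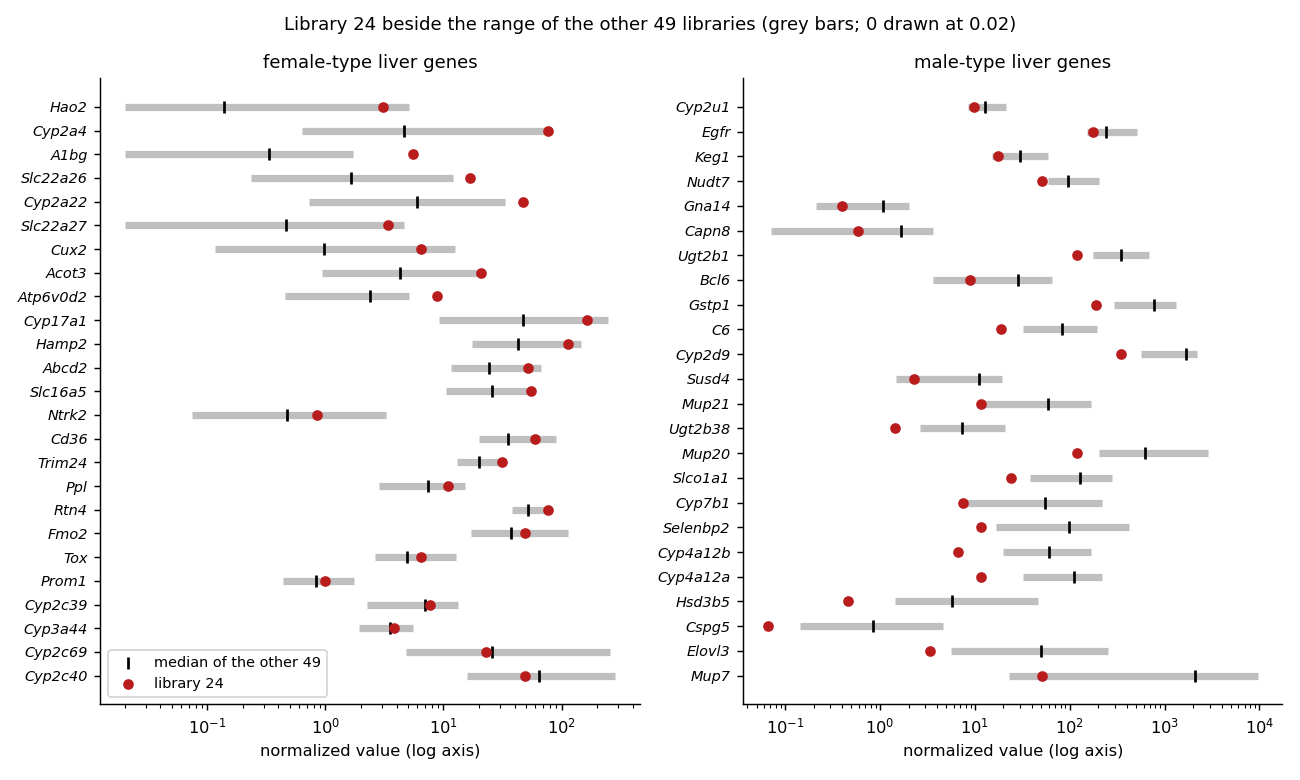
Library 24 (red points) beside the range (grey bars) and median (black ticks) of the other 49 libraries for 25 of the 26 female-type genes in the table and for 24 male-type liver genes, normalized values on log axes with 0 drawn at 0.02. Red points lie beyond the bar on the right for 6 of the female-type genes shown and on the left for 15 male-type genes.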

How the data were processed

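Liver RNA of male mice was sequenced as 50 stranded mRNA libraries. Per the labels and the study's methods, the authors trimmed the reads, aligned them with HISAT2 to GRCm38.p5, counted them per gene with HTSeq 0.11.1, removed low-count genes and normalized with edgeR. The deposited values are a normalized signal close to CPM. Dividing by the smallest step of each library gave whole reads (100% of values within 0.01) and a count test was run beside the main one. This unit differed from the CPM foreseen, with the same test.

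Values were tested as log2(value + 0.5) for genes with a mean of at least 1 (11436 of 12185) with limma 3.58.1 (lmFit and eBayes with trend, 2-sided, Benjamini-Hochberg over all genes tested, threshold 0.05). Each model had 1 term: library set, animal number (per 100), log2 Cyp2b9 or log2 Cyp2b10, and a further fit held the interaction of number and set. A gene rose or fell when its slope passed. With 200 changed genes planted in simulated data at a log2 effect of 1, 198 were recovered for library set (11 others called). With 200 planted at a log2 effect of 0.5, 199 were recovered for the Cyp2b10 slope (10 others). Recovery of smaller effects, such as the Cyp2b10 slopes given above, was not tested. Correlations and mean differences used 100000 permutations. edgeR 4.0.16 (quasi-likelihood on whole reads) and the other alternatives are given in the closing section. Sequences came from RefSeq (GRCm38.p6) and GENCODE M21 (GRCm38) and were aligned with edlib. Gene symbols matched 12177 of 12185 identifiers.

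The 5 genes, the gene lists and the tests were chosen with earlier results of these data known. Genes were named as the 5 members, the rest of their families, the 5 genes most like and 3 most opposite to Cyp2b9 and to Cyp2b10, the 10 farthest above and 5 farthest below the others in library 24, and within each list those that passed, up to 6 in each direction by adjusted p, or were highest or lowest in library 24. The other list genes named (Mup7, Cyp7b1, Cyp2d9, Bcl6, Cyp2u1, Cyp2c69, Cyp2c40, Cyp3a11, Cyp2c37 and Por) were chosen after their values were seen. In these lists and rankings 2 genes are counted but not reported here by name. Each library was taken as 1 mouse, although the study counts fewer mice than libraries. The study draws each mouse as 1 dot for gene expression and states that offspring had unique genotypes. Because 2 animal numbers are on 2 libraries each, p-values measure the spread between these libraries. That spread may be technical in part where libraries share a mouse.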

Additional observations from a re-analysis of the deposited data

How the results depend on the processing

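The rise of Cyp2b10 and Cyp2b9 with animal number passed in every alternative on all or nearly all libraries (other pseudocounts, no filter, edgeR, without library 24, plain CPM, total reads or library set as a covariate, shared animal numbers left out), and the sets alone, added after seeing the data, are given above. Numbers of genes called changed by over 1.5 times in these cases. For library set, 898 genes were called with total reads as a covariate, against 1575. For animal number, 26 were called within libraries 31 to 59, against 1627. For the interaction, 1 was called with edgeR and 1 without library 24, against 5. For the slope on Cyp2b10, 173 were called with library set and animal number as covariates and 10 within libraries 31 to 59, against 2058. For the slope on Cyp2b9, 1197 were called without library 24, 833 with the 2 covariates and 90 within libraries 31 to 59, against 1834. Fewer libraries entered the fits within sets, and the cause of the other changes was not tested. Scaling each library to its plain total moved the calls for library set from 835 higher and 740 lower to 433 and 915, and those for Cyp2b9 from 912 rising and 922 falling to 2087 and 375, while the sex-type lists had 17 rising and 21 falling. The correlation of Cyp2b9 and Cyp2b10 was 0.195 within libraries 31 to 59. Uncalled differences that changed sign were Cyp2b10 between library sets (0.27 with animal number as a covariate), the interaction of Cyp2b9 (-0.055 with edgeR) and Cyp2b13 between library sets (0.0192 without library 24, and 5.19 percentage points more libraries with a read). Mean levels of 4 of the 5 genes rested on library 24, which also set their SD. Without it they were 6.35 for Cyp2b9 (against 10.1), 0.0507 for Cyp2b13 (against 0.386), 0.0525 for Sult2a1 (against 0.299) and 0.0874 for Sult2a2 (against 0.519), while Cyp2b10 stood at 24.7 in both. Means taken on the log2 scale and converted back were 2.89 for Cyp2b9, 16.9 for Cyp2b10, 0.0822 for Cyp2b13, 0.0828 for Sult2a1 and 0.115 for Sult2a2. Depth limited Cyp2b13, Sult2a1 and Sult2a2, whose values outside library 24 were mostly under 3 reads, a floor that covers counting error only.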
